A study of Mus musculus with 24 samples.

Results

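Osmr, S1pr3, Steap4, Lcn2, Serpina3n, Timp1, Tgm1 and Vim are genes whose RNA is known to increase in astrocytes that respond to injury, and their levels were compared here across mouse brains after chemoradiotherapy, with and without a glioma and extracellular vesicle (EV) treatment. They were taken by gene symbol from an nCounter neuroinflammation panel, as a list named with earlier results of these data known, and are 8 of its 757 genes. All 8 were found, each with 1 probe. Reactive astrocytes enlarge, rebuild their intermediate filament network and secrete acute-phase and matrix-regulating proteins after trauma, infection, ischemia or irradiation. Cytokines of the IL-6 family, acting through receptors that pair with gp130 and through STAT3, and signals that act through NF-kappa B are known inducers of this state. None of the 8 genes is used by astrocytes alone: vimentin is also made by endothelial cells and microglia, Lcn2 by neutrophils, and Timp1 by cells of the vessel wall.

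Bulk brain RNA from 24 male C57BL/6J mice, 27 weeks old at perfusion, was measured, 1 sample per mouse. Of the 7 groups, 3 had received a CT2A-Luc glioma, a mouse tumor line carrying luciferase, in the brain, and all 3 were also given RT-TMZ. The labels state this as 3 fractions of 9 Gy to the head with temozolomide (TMZ) at 25 mg/kg during irradiation and 66.7 mg/kg afterwards. They then received Shef6 EV (CT2A + RT-TMZ + Shef6 EV, 3 mice), UCI-191 EV (CT2A + RT-TMZ + UCI-191 EV, 3 mice) or vehicle (CT2A + RT-TMZ + Veh, 4 mice). Shef6 and UCI-191 are human neural stem cell lines that shed the vesicles. Tumor-free mice received the same RT-TMZ followed by Shef6 EV (RT-TMZ + Shef6 EV, 3 mice), UCI-191 EV (RT-TMZ + UCI-191 EV, 3 mice) or vehicle (RT-TMZ + Veh, 4 mice). The remaining 4 were tumor-free, unirradiated and given vehicle (Control + Veh). The vesicles are human products in a mouse host, no tumor group without RT-TMZ and no EV group without RT-TMZ is analysed here. The dissected brain region differs between the labels and the methods, so "brain" is used throughout.

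The deposited values are log2 counts after the authors' scaling on spiked-in controls and housekeeping genes, and every level and difference below is on that log2 scale. Each sample has a lowest value (2.93 to 3.91) that 11 to 60 genes share, and 64 to 112 genes per sample lay below 20 counts, a level of 4.32. The scaling factors that the low values imply were 1.32 to 1.42 in CT2A + RT-TMZ + Veh and 0.837 to 1.18 in the other groups, so the 4 samples of CT2A + RT-TMZ + Veh were scaled up the most. Of the fixed astrocyte markers, 6 of 13 were measured and all 6 were detected. Their summed level was 18812 to 23709 counts in CT2A + RT-TMZ + Veh, against 25423 to 27252 counts in RT-TMZ + Veh and 27283 to 28224 counts in Control + Veh. It was 22931 to 24561 counts in RT-TMZ + Shef6 EV and 26236 to 26503 counts in RT-TMZ + UCI-191 EV. With CT2A it was 23460 to 25853 counts under Shef6 EV and 22612 to 25472 counts under UCI-191 EV. Ttr, the transthyretin of the choroid plexus and the 1 of 6 choroid plexus markers measured, was above 11 in 14 samples (11.87 to 14.86) and at 5.31 to 10.27 in the other 10, a split that cut through 4 of the groups. Mef2c, a neuronal transcription factor, was above 13 in 6 samples (13.71 to 14.38) and at 11.67 to 12.91 in the other 18. In bulk RNA, a change in the number of cells that make a transcript and a change in the RNA per cell cannot be told apart.

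The promoters of Osmr, Vim and Steap4 are shown because Osmr and Vim had the most similar levels of any pair among the 8 genes and Steap4 holds 2 of the 3 motifs searched. They are RefSeq windows of 300 bases around the transcription start on GRCm38.p6: Osmr at chr15:6874264-6874563 on the minus strand, Vim at chr2:13574061-13574360 on the plus strand and Steap4 at chr5:7960222-7960521 on the plus strand. Both strands were searched for the STAT motif TTCNNNGAA, the AP-1 motif TGANTCA and the kappa B motif (GGG and TTCC with any 3 bases between), and capitals mark the matches.
Osmr: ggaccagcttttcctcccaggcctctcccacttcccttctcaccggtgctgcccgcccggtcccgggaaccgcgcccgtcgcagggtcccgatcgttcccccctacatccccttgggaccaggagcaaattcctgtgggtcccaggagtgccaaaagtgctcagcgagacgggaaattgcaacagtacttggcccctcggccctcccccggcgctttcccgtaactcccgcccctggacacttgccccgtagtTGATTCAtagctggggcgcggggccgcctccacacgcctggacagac
Vim: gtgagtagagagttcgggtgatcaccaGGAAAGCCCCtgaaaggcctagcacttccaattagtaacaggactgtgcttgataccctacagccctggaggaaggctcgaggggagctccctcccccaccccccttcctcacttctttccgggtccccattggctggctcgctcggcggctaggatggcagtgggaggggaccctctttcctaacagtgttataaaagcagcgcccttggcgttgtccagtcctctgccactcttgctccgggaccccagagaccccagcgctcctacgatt
Steap4: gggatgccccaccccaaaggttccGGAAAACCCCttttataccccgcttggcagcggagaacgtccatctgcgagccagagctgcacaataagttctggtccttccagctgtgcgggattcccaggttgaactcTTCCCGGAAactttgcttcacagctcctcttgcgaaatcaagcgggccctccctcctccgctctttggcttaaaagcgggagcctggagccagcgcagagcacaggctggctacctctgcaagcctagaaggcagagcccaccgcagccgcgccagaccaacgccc
Osmr had an AP-1 match 3 bases after the start, Vim a kappa B match 223 bases before it, and Steap4 a STAT match 116 bases and a kappa B match 226 bases before it. The Serpina3n window had a kappa B match 171 bases before the start, and 1 of the 2 windows of Tgm1 had STAT matches 173 and 64 bases before it. None of these matches overlapped another. The windows of Lcn2, S1pr3 and Timp1 held none of the 3 patterns. Of all 32851 windows in the table, 8.30% held the STAT motif, 7.81% the AP-1 motif and 5.55% the kappa B motif, so a match is a description of these letters and no sign of binding.

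Osmr (Entrez ID 18414; chromosome 15, 6813568 to 6874968) encodes the oncostatin M receptor, which signals with gp130. Its level was 7.86, 7.73 and 7.99 in CT2A + RT-TMZ + Shef6 EV, 7.26, 7.54 and 6.80 in CT2A + RT-TMZ + UCI-191 EV, and 7.11, 6.70, 6.77 and 7.24 in CT2A + RT-TMZ + Veh. Tumor-free mice had 7.19, 7.32 and 7.58 in RT-TMZ + Shef6 EV, 7.63, 7.84 and 7.73 in RT-TMZ + UCI-191 EV, and 7.67, 7.50, 8.10 and 7.64 in RT-TMZ + Veh. Control + Veh had 7.13, 7.45, 6.83 and 7.32. The 3 groups with high Osmr (RT-TMZ with vehicle or UCI-191 EV, and glioma-bearing mice with Shef6 EV) had no sample below 7.50, and the 2 groups with the lowest means, CT2A + RT-TMZ + Veh and Control + Veh, had none above 7.45. In the order of the group means, only the step of 0.36 between RT-TMZ + Veh (mean 7.73 ± 0.26 SD, as for all group means below) and RT-TMZ + Shef6 EV (7.36 ± 0.20) was larger than the spread within groups (pooled SD 0.25).

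S1pr3 (ID 13610; chromosome 13, 51408618 to 51422797), a receptor for sphingosine-1-phosphate, was more even. Its level was 9.16, 8.63 and 8.86 in CT2A + RT-TMZ + Shef6 EV, 8.49, 8.50 and 7.95 in CT2A + RT-TMZ + UCI-191 EV, and 7.90, 8.50, 7.86 and 8.49 in CT2A + RT-TMZ + Veh. It was 8.44, 8.49 and 8.61 in RT-TMZ + Shef6 EV, 8.72, 8.68 and 8.56 in RT-TMZ + UCI-191 EV, and 8.33, 8.38, 8.63 and 8.67 in RT-TMZ + Veh. Control + Veh had 7.85, 8.15, 7.96 and 8.01. Control + Veh had the lowest mean of the 7 groups (7.99 ± 0.12), as it also had for Steap4, Lcn2, Timp1 and Tgm1. The steps between neighbouring groups were at most 0.23, about the size of the pooled SD within groups (0.23).

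Steap4 (ID 117167; chromosome 5, 7960472 to 7982213), a metalloreductase of iron and copper uptake, had the widest range of the 8 genes, 4.25 to 6.92. Its level was 5.24, 6.60 and 6.92 in CT2A + RT-TMZ + Shef6 EV, 5.40, 5.67 and 5.61 in CT2A + RT-TMZ + UCI-191 EV, and 5.16, 4.68, 4.48 and 6.09 in CT2A + RT-TMZ + Veh. Tumor-free mice had 4.97, 6.25 and 6.67 in RT-TMZ + Shef6 EV, 6.61, 6.23 and 6.40 in RT-TMZ + UCI-191 EV, and 4.30, 6.47, 6.37 and 5.45 in RT-TMZ + Veh. Control + Veh had 4.51, 4.25, 4.39 and 4.55. Control + Veh and the UCI-191 EV groups were narrow, with SDs of 0.14 to 0.19, while each of the other 4 groups held both low and high samples (SD 0.72 to 1.01). No step between neighbouring group means exceeded the pooled SD of 0.68.

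The samples with low and high Steap4 were those with low and high Ttr. Steap4 was 5.40 to 6.92 (median 6.31) in the 14 samples with Ttr above 11 and 4.25 to 5.24 (median 4.53) in the other 10, with no overlap. Over the 24 samples, which come from separate mice and share 1 panel and 1 scaling, Pearson's r between the 2 genes was 0.89, and it was also 0.89 after the group means were taken out. For Vim and Osmr, r with Ttr was 0.71 and 0.62 (0.67 and 0.49 within groups), and for the other 5 genes 0.07 to 0.55. The part of choroid plexus content in these levels was not tested beyond the fit with Ttr as a covariate given below.

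Lcn2 (ID 16819; chromosome 2, 32384637 to 32387739) encodes lipocalin-2, a secreted protein that binds bacterial iron carriers. Its level was 6.24, 4.97 and 5.48 in CT2A + RT-TMZ + Shef6 EV, 4.70, 5.00 and 4.54 in CT2A + RT-TMZ + UCI-191 EV, and 5.55, 4.41, 4.64 and 4.76 in CT2A + RT-TMZ + Veh. It was 5.37, 4.32 and 5.03 in RT-TMZ + Shef6 EV, 4.79, 5.09 and 5.49 in RT-TMZ + UCI-191 EV, and 5.03, 6.00, 6.27 and 5.90 in RT-TMZ + Veh. Control + Veh had 4.51, 4.25, 4.18 and 4.70. RT-TMZ + Veh held 3 of the 4 samples at 5.90 or above, and the fourth was in CT2A + RT-TMZ + Shef6 EV. All steps between neighbouring group means were smaller than the pooled SD of 0.45.

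Serpina3n (ID 20716; chromosome 12, 104406646 to 104414334), a secreted inhibitor of serine proteases, is one of a cluster of near-identical mouse genes, and its probe may not separate them. Its level was 9.70, 9.54 and 9.51 in CT2A + RT-TMZ + Shef6 EV, 8.75, 8.64 and 7.27 in CT2A + RT-TMZ + UCI-191 EV, and 9.73, 7.85, 9.43 and 9.73 in CT2A + RT-TMZ + Veh. It was 8.41, 8.88 and 9.60 in RT-TMZ + Shef6 EV, 9.65, 9.22 and 9.30 in RT-TMZ + UCI-191 EV, and 9.64, 9.33, 9.69 and 9.68 in RT-TMZ + Veh. Control + Veh had 8.80, 9.25, 8.85 and 8.36. The low samples outside Control + Veh were those with high Mef2c: the 6 samples with Mef2c above 13 had Serpina3n at 7.27 to 8.88 (median 8.53), and the other 18 at 8.36 to 9.73 (median 9.53). Pearson's r between Serpina3n and Mef2c was -0.81 over the 24 samples and also -0.81 within groups. All 3 CT2A + RT-TMZ + UCI-191 EV samples were among those 6, and the part of this sample difference in the comparisons of that group was not tested apart from the fits named in the closing section.

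**Figure D1:**
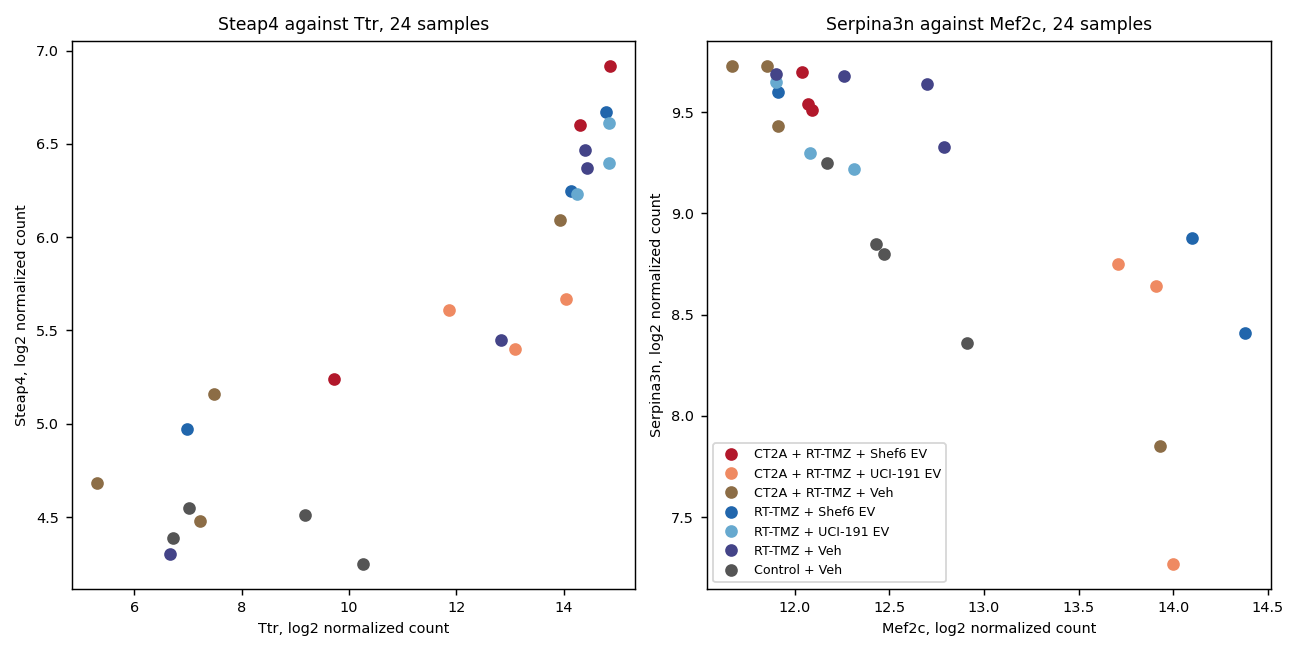
Steap4 against Ttr (left) and Serpina3n against Mef2c (right) in the 24 samples, coloured by group, all axes in log2 normalized counts. All 14 samples with Ttr above 11 lie at a Steap4 level of 5.40 or more and the other 10 at 5.24 or less, and the 6 samples with Mef2c above 13 lie at a Serpina3n level of 8.88 or less.

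Timp1 (ID 21857; chromosome X, 20870166 to 20874737), a secreted inhibitor of matrix metalloproteinases, lay near the lower limit of the assay, below 20 counts in 12 of 24 samples. Its level was 4.76, 4.41 and 3.72 in CT2A + RT-TMZ + Shef6 EV, 4.20, 4.39 and 4.25 in CT2A + RT-TMZ + UCI-191 EV, and 4.71, 4.31, 3.67 and 4.25 in CT2A + RT-TMZ + Veh. It was 4.43, 4.97 and 4.20 in RT-TMZ + Shef6 EV, 4.89, 4.54 and 4.34 in RT-TMZ + UCI-191 EV, and 4.55, 4.04, 4.97 and 4.94 in RT-TMZ + Veh. Control + Veh had 3.49, 3.48, 3.39 and 3.66. All 4 Control + Veh samples were below every other sample. The nearest was 1 of CT2A + RT-TMZ + Veh at 3.67, which was that sample's own lowest value. Of the 4 Control + Veh samples, 3 were also at their sample's lowest value. The separation at that point and the size of any difference from Control + Veh therefore depend on the assay's limit. The step of 0.73 between Control + Veh and the next group was larger than the pooled SD of 0.36, and the other steps were not.

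Tgm1 (ID 21816; chromosome 14, 55700009 to 55713921), a transglutaminase that cross-links proteins, was below 20 counts in 22 of 24 samples and at the sample's lowest value in 10. It had 5.09, 3.72 and 3.09 in CT2A + RT-TMZ + Shef6 EV, and in the other groups it ranged from 3.38 in RT-TMZ + Shef6 EV to 4.36 in RT-TMZ + Veh. Its 4 Control + Veh values were the same as those of Timp1, 3.49, 3.48, 3.39 and 3.66. Every order among its group means rests on values at or near that limit.

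Vim (ID 22352; chromosome 2, 13574311 to 13582826) encodes vimentin, the intermediate filament protein. Its level was 10.89, 10.43 and 10.69 in CT2A + RT-TMZ + Shef6 EV, 9.90, 10.18 and 9.90 in CT2A + RT-TMZ + UCI-191 EV, and 9.45, 8.47, 9.36 and 10.08 in CT2A + RT-TMZ + Veh. Tumor-free mice had 10.23, 10.44 and 10.62 in RT-TMZ + Shef6 EV, 10.89, 10.87 and 10.65 in RT-TMZ + UCI-191 EV, and 10.15, 10.72, 11.08 and 10.82 in RT-TMZ + Veh. Control + Veh had 9.88, 10.22, 9.87 and 10.03. All 4 samples of CT2A + RT-TMZ + Veh were at or below 10.08, and the lowest, at 8.47, was also the one with the lowest Ttr. That sample was also the only one of its group with Mef2c above 13 (13.93). Pearson's r with Mef2c was -0.34 for Vim and -0.41 for Osmr over the 24 samples, and -0.66 and -0.48 within groups. The step of 0.43 between RT-TMZ + Shef6 EV (10.43 ± 0.20) and Control + Veh (SD 0.16), and that of 0.65 between CT2A + RT-TMZ + UCI-191 EV (9.99 ± 0.16) and CT2A + RT-TMZ + Veh (9.34 ± 0.66), were larger than the pooled SD of 0.35.

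**Figure D2:**
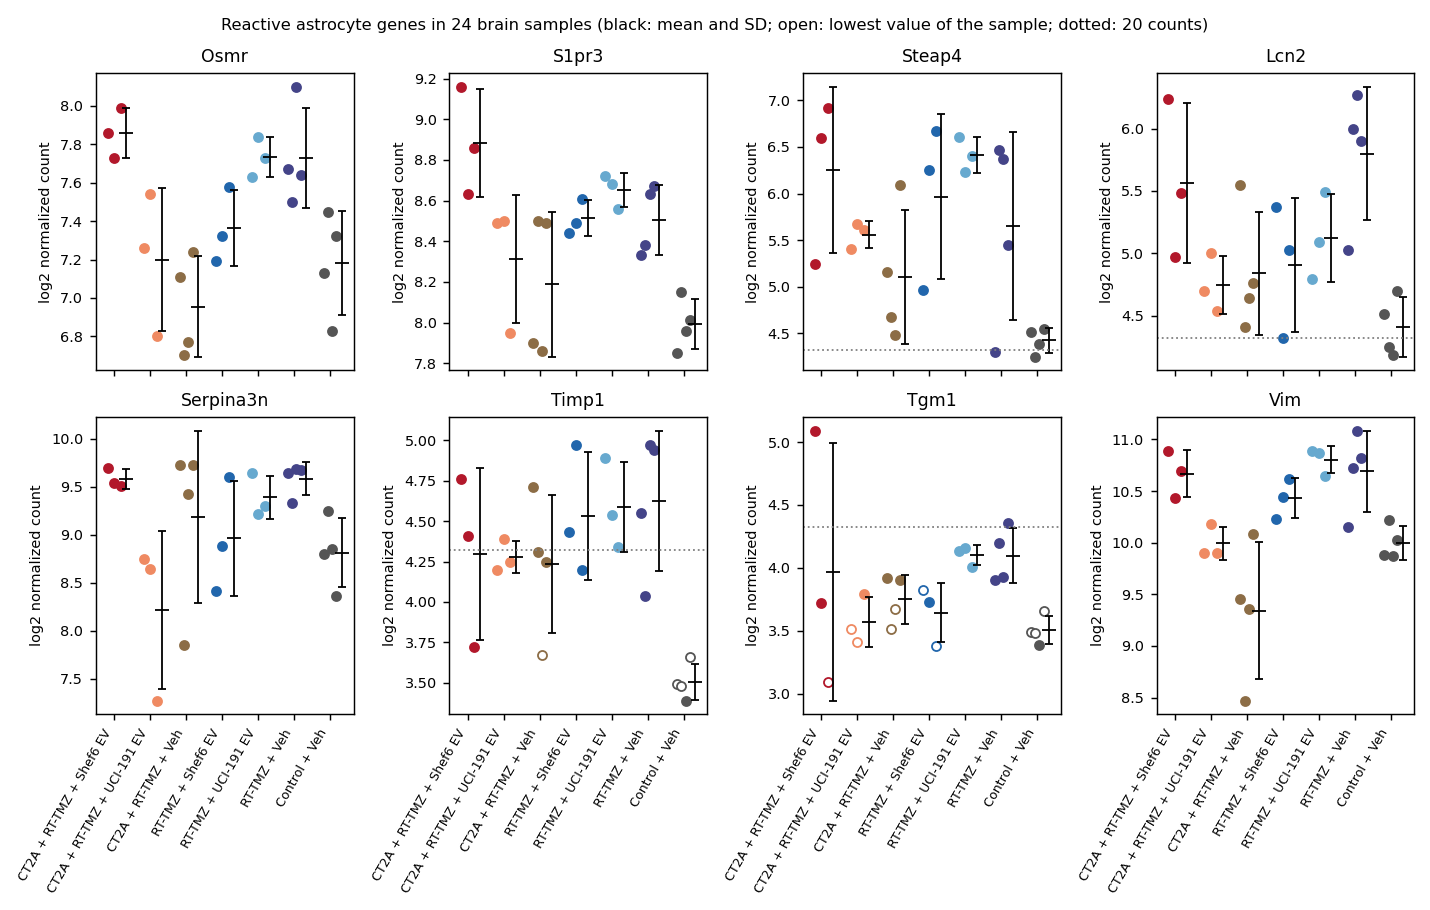
The log2 level of each of the 8 genes in every sample, 1 panel per gene and 1 column per group, with the mean and SD in black, open points at a sample's lowest value and a dotted line at 20 counts. RT-TMZ + UCI-191 EV, RT-TMZ + Veh and CT2A + RT-TMZ + Shef6 EV are the high groups for Osmr and Vim, and Control + Veh has the lowest mean for 5 of the 8 genes.

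Over all 7 groups, 6 of the 8 genes differed between groups in limma's F test, against 48% of all 757 genes. They were Vim (F = 9.26, adjusted p = 0.000668), Osmr (F = 7.22, adjusted p = 0.00217), S1pr3 (F = 6.37, adjusted p = 0.00368), Lcn2 (F = 4.64, adjusted p = 0.0142), Timp1 (F = 4.62, adjusted p = 0.0143) and Steap4 (F = 4.13, adjusted p = 0.0207). Serpina3n (adjusted p = 0.0633) and Tgm1 (adjusted p = 0.294) missed the threshold. Steap4 also missed it without Control + Veh replicate 2 (adjusted p = 0.0514), and Serpina3n passed it without CT2A + RT-TMZ + Veh replicate 2 (adjusted p = 0.00453) or without RT-TMZ + Shef6 EV replicate 3 (adjusted p = 0.0384). Tgm1 passed it without CT2A + RT-TMZ + Shef6 EV replicate 1 (adjusted p = 0.0113) or 3 (adjusted p = 0.0361). With quantile normalization Steap4 (adjusted p = 0.0684) and Lcn2 (adjusted p = 0.0519) missed it. Serpina3n passed with median centring (adjusted p = 0.0366), quantile normalization (0.0394), the scaling factor divided out (0.0127) or Ttr as a covariate (0.0394). Of the other reactive astrocyte genes, a list of 31 with 21 measured, 9 passed.

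What RT-TMZ did to these genes in tumor-free brain was read from RT-TMZ + Veh against Control + Veh. All 8 genes were higher, and 6 of 8 rose, where 12.2% of all 757 genes rose and 5.68% fell. Lcn2 rose the most (5.80 ± 0.54 in RT-TMZ + Veh and 4.41 ± 0.24 in Control + Veh, difference 1.39 ± 0.26 SE, adjusted p = 0.00693), followed by Timp1 (difference 1.12 ± 0.21 SE, adjusted p = 0.00734) and Serpina3n (difference 0.77 ± 0.17 SE, adjusted p = 0.0149). S1pr3 rose by 0.51 ± 0.10 (adjusted p = 0.00972), Vim by 0.69 ± 0.18 (adjusted p = 0.0278) and Tgm1 by 0.59 ± 0.15 (adjusted p = 0.0270). Osmr was 0.55 ± 0.17 higher (adjusted p = 0.0515) and Steap4 1.22 ± 0.43 higher (adjusted p = 0.0816), and neither passed. The groups did not overlap for Osmr, S1pr3, Lcn2, Serpina3n, Timp1 and Tgm1, where 110 of all 757 genes were higher and 55 lower without overlap. The median difference was 0.73 over the 8 genes and 0.05 over all genes.

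RT-TMZ + Veh replicate 1 stood apart within its group, with Ttr at 6.67 against 12.84 to 14.43 in the other 3. Its Lcn2, Osmr, S1pr3, Serpina3n, Timp1 and Tgm1 were still above every Control + Veh sample, whereas its Steap4 (4.30) and Vim (10.15) were inside the Control + Veh range. Without it, Steap4 passed as well, at a difference of 1.67. With Ttr as a covariate, a fit in which this sample is the only one of its group with a Ttr level near that of Control + Veh, Lcn2 (0.96) and Timp1 (1.12) passed. Serpina3n (0.71, against 0.77 without Ttr), Tgm1 (0.51, against 0.59), S1pr3 (0.41, against 0.51) and Vim (0.35, against 0.69) did not pass in that fit. The calls of Lcn2, Timp1, Serpina3n and S1pr3 held when any 1 sample was left out. Vim lost its call without Control + Veh replicate 1 or 3 or RT-TMZ + Veh replicate 2, 3 or 4 (adjusted p 0.0618 to 0.0833). Tgm1 lost it without Control + Veh replicate 1, 2 or 3 or RT-TMZ + Veh replicate 2 or 4 (adjusted p 0.0583 to 0.0735). Osmr gained a call without Control + Veh replicate 2, at a difference of 0.63.

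Of the 21 other reactive astrocyte genes, 18 were higher and 3 lower in RT-TMZ + Veh than in Control + Veh, 4 rose and none fell by limma's test. Those were Gbp2, an interferon-induced GTPase (0.89 ± 0.20 SE, adjusted p = 0.0151), Psmb8, a subunit of the immunoproteasome (0.59 ± 0.11, adjusted p = 0.00792), Ptx3, a secreted pentraxin (0.54 ± 0.16, adjusted p = 0.0463), and Amigo2, an adhesion protein (0.54 ± 0.10, adjusted p = 0.00575). The median of the 21 was 0.29. Of 22 measured genes of known inducers and NF-kappa B signaling, 2 rose and none fell: C1qa, of the first complement component, by 0.53 ± 0.05 (adjusted p = 0.000335), and Tnfrsf1a, a receptor for TNF, by 0.63 ± 0.18 (adjusted p = 0.0436). C1qa is made mainly by microglia, whose 9 measured markers split into 2 that rose and 3 that fell. S1pr4, 1 of the 2 other sphingosine-1-phosphate receptors measured, rose by 0.54 ± 0.13 (adjusted p = 0.0244).

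The effect of a glioma under the same RT-TMZ and vehicle was read from 2 comparisons. CT2A + RT-TMZ + Veh was below RT-TMZ + Veh in all 8 genes, and 2 of 8 fell, where 1.85% of all 757 genes rose and 8.72% fell. Vim averaged 9.34 ± 0.66 in CT2A + RT-TMZ + Veh and 10.69 ± 0.39 in RT-TMZ + Veh, a difference of -1.35 ± 0.33 SE (adjusted p = 0.0414). Osmr averaged 6.96 ± 0.26 in CT2A + RT-TMZ + Veh and 7.73 ± 0.26 in RT-TMZ + Veh, a difference of -0.77 ± 0.18 SE (adjusted p = 0.0391). Neither gene overlapped between the groups, where 41 of all 757 genes were higher and 119 lower without overlap. Lcn2 differed by -0.96 without passing (adjusted p = 0.0874) and passed without RT-TMZ + Veh replicate 1 (-1.22), and the median difference was -0.47 over the 8 genes and -0.14 over all genes. The direction of all 8 was the same under each of the 3 other scalings tried. Both calls were lost without RT-TMZ + Veh replicate 2, 3 or 4 or CT2A + RT-TMZ + Veh replicate 1 or 3 (adjusted p 0.0654 to 0.127), and that of Osmr also without RT-TMZ + Veh replicate 1 (adjusted p = 0.0561).

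Other cell markers moved with this comparison. Of the 7 measured of 13 endothelial markers, 5 fell, and their summed level was 1823 to 2235 counts in CT2A + RT-TMZ + Veh, against 3067 to 4252 counts in RT-TMZ + Veh and 2918 to 3256 counts in Control + Veh. Tie1, an endothelial receptor kinase, fell by 1.64 ± 0.21 (adjusted p = 0.0223). Sox9, a transcription factor of astrocytes, fell by 0.58 ± 0.13 (adjusted p = 0.0393), and with Gja1 and Slc1a3 it made 3 of 6 measured astrocyte markers that fell. The part of vessel or astrocyte content in the levels of Osmr and Vim was not tested, and no pericyte or fibroblast marker of the fixed list was measured. Of the other reactive astrocyte genes, 4 of 21 fell: Fbln5, a matrix protein of elastic fibres (-1.37), Emp1, a membrane protein (-1.26), Gbp2 (-0.98) and Tm4sf1, a tetraspanin-like protein of vessels (-0.82).

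Against Control + Veh, CT2A + RT-TMZ + Veh was higher in 6 genes and lower in 2, and 1 of 8 rose, where 7.79% of all 757 genes rose and 13.3% fell. Timp1 averaged 4.24 ± 0.43 in CT2A + RT-TMZ + Veh and 3.51 ± 0.11 in Control + Veh, a difference of 0.73 (adjusted p = 0.0447), and the call was lost without any 1 of 7 of the 8 samples (adjusted p 0.0633 to 0.109, all but CT2A + RT-TMZ + Veh replicate 3). Vim differed by -0.66 and did not pass (adjusted p = 0.138). It passed without CT2A + RT-TMZ + Veh replicate 4 (-0.91), with all 7 groups in 1 fit (-0.66), with Ttr (-0.69) or Mef2c (-0.74) as a covariate and with the scaling factor divided out (-1.28), and with Ttr Timp1 lost its call (adjusted p = 0.0513). Without CT2A + RT-TMZ + Veh replicate 2 Serpina3n passed, at 0.82. These directions depend on the scaling. With the scaling factor divided out, 2 genes were higher and 6 lower, Osmr and Vim fell, and the median of all genes lay at -0.67. Socs3, a STAT3 target and feedback inhibitor, rose by 0.84 ± 0.24 (adjusted p = 0.0401) and Il6ra, the IL-6 receptor alpha chain, fell by 0.97 ± 0.25 (adjusted p = 0.0302) among the 3 measured of 18 IL-6 family and STAT3 genes.

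**Figure D3:**
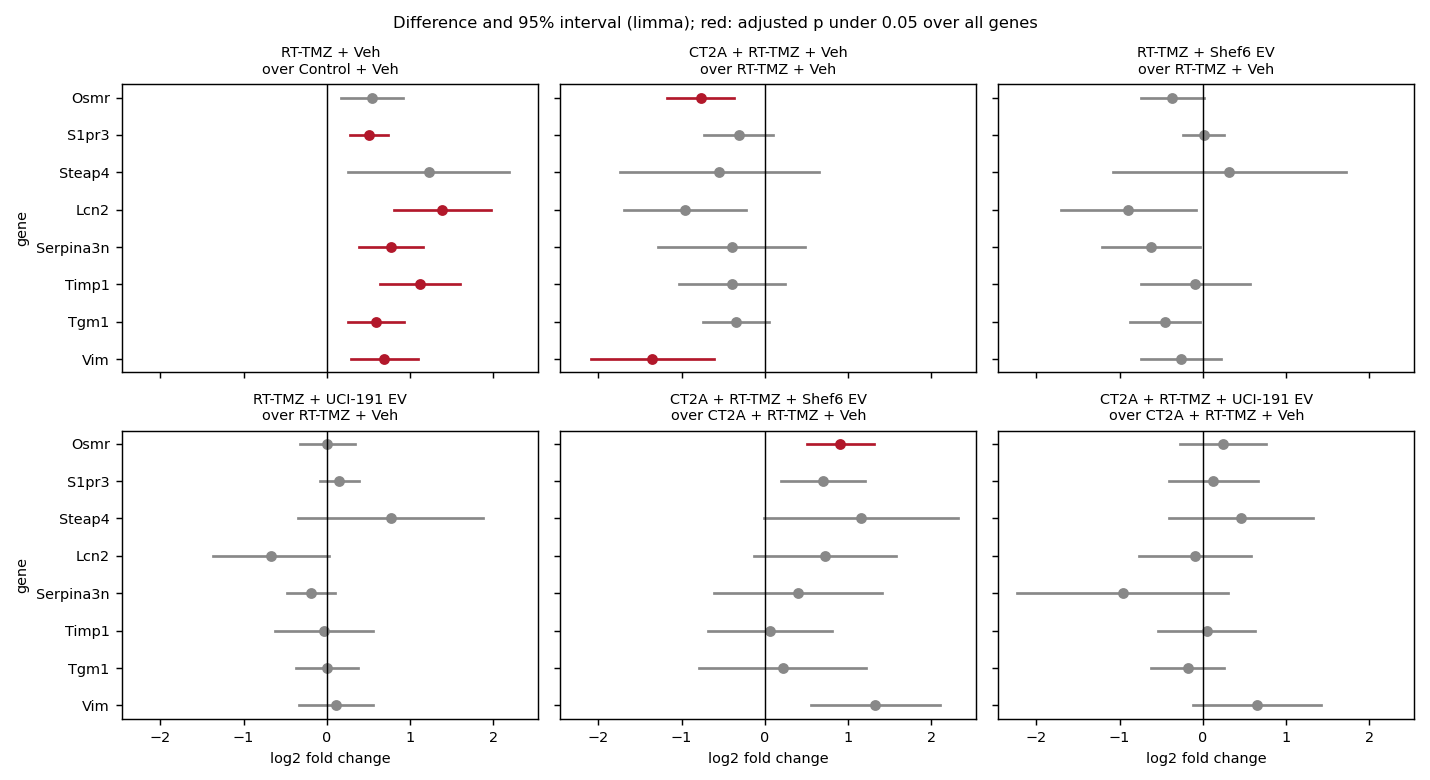
Difference in log2 level for each of the 8 genes in the comparisons named above each panel, with 95% intervals from limma, in red where the adjusted p passed. All 8 lie above 0 for RT-TMZ + Veh against Control + Veh, where 6 pass, and all 8 below 0 for CT2A + RT-TMZ + Veh against RT-TMZ + Veh, where Osmr and Vim pass.

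Whether EV treatment moved these genes in irradiated tumor-free brain was read against RT-TMZ + Veh. With Shef6 EV, 2 genes were higher and 6 lower (3 and 5 with quantile normalization, 1 and 7 with the scaling factor divided out), and none of the 8 passed, as 0% of all 757 genes rose and 0% fell (without adjustment, 20 passed as higher and 72 as lower). Lcn2 averaged 4.91 ± 0.54 in RT-TMZ + Shef6 EV and 5.80 ± 0.54 in RT-TMZ + Veh (difference -0.89, 95% interval -1.70 to -0.09). Serpina3n averaged 8.96 ± 0.60 in RT-TMZ + Shef6 EV and 9.59 ± 0.17 in RT-TMZ + Veh (-0.62, interval -1.21 to -0.03). Tgm1 averaged 3.64 ± 0.23 in RT-TMZ + Shef6 EV and 4.10 ± 0.22 in RT-TMZ + Veh (-0.45, interval -0.88 to -0.03). These 3 had unadjusted p-values of 0.0343, 0.0410 and 0.0383 and an adjusted p of 0.406 in limma's fit. The 2 groups did not overlap for Tgm1, whose values in both groups lay at or near the assay's limit. Of all 757 genes, 18 were higher and 60 lower without overlap. Same-numbered samples of these groups deviated together, and with the replicate number as a block still none of the 8 passed. Without RT-TMZ + Shef6 EV replicate 3, whose Serpina3n was 9.60, Serpina3n passed at -0.94. That replicate was the only one of its group with Mef2c below 13, as all RT-TMZ + Veh samples were. Without it, Mef2c and the groups coincide and cannot be told apart. Among samples with Mef2c below 13 the difference of Serpina3n was 0.02 with 1 sample left in RT-TMZ + Shef6 EV. Of the 21 other reactive astrocyte genes 2 were higher and 19 lower, and none passed. Of the 6 measured astrocyte markers 1 was higher and 5 lower, none passed, and their part in these levels was not tested.

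With UCI-191 EV, 5 genes were higher than in RT-TMZ + Veh and 3 lower (3 and 5 with median centring, 4 and 4 with quantile normalization, 6 and 2 with the scaling factor divided out), and none passed, as 0% of all 757 genes rose and 0% fell (15 higher and 30 lower unadjusted). Osmr differed by 0.01 (95% interval -0.33 to 0.34), Vim by 0.11 (interval -0.33 to 0.55) and S1pr3 by 0.15 (interval -0.08 to 0.39). Lcn2 differed by -0.68 (interval -1.37 to 0.02, adjusted p = 0.735) and Steap4 by 0.77 (interval -0.35 to 1.88), so for these 2 genes differences of over 1 log2 unit lie inside the interval. RT-TMZ + UCI-191 EV was above RT-TMZ + Shef6 EV in all 8 genes and none passed, as 0% of all 757 genes rose and 0% fell (59 higher and 24 lower unadjusted). Osmr (0.37), Tgm1 (0.46) and Vim (0.37) did not overlap between the EV groups, where 80 of all 757 genes were higher and 33 lower without overlap. These 3 genes had an adjusted p of 0.443 in limma's fit. Median centring or quantile scaling left 7 genes higher and 1 lower, and without RT-TMZ + Shef6 EV replicate 3 the differences of 0.48 for Osmr and 0.47 for Vim passed, and Serpina3n passed too. That replicate was the only one of its group with Mef2c below 13 (11.91), and RT-TMZ + UCI-191 EV had Mef2c at 11.90 to 12.31. Without it, Mef2c and the EV source coincide and cannot be told apart.

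In glioma-bearing mice, all 8 genes were higher in CT2A + RT-TMZ + Shef6 EV than in CT2A + RT-TMZ + Veh and 1 of 8 rose, where 3.7% of all 757 genes rose and 1.32% fell. Osmr averaged 7.86 ± 0.13 in CT2A + RT-TMZ + Shef6 EV and 6.96 ± 0.26 in CT2A + RT-TMZ + Veh (difference 0.91 ± 0.17 SE, adjusted p = 0.0282). Vim averaged 10.67 ± 0.23 in CT2A + RT-TMZ + Shef6 EV and 9.34 ± 0.66 in CT2A + RT-TMZ + Veh (difference 1.33 ± 0.33 SE, adjusted p = 0.0528). S1pr3 averaged 8.88 ± 0.27 in CT2A + RT-TMZ + Shef6 EV and 8.19 ± 0.36 in CT2A + RT-TMZ + Veh (difference 0.70 ± 0.22 SE, adjusted p = 0.0799). The groups did not overlap for these 3 genes, while for the other 5 they did, where 151 of all 757 genes were higher and 89 lower without overlap. The median difference was 0.71 over the 8 genes and 0.11 over all genes. Timp1 (0.06, interval -0.69 to 0.81) and Tgm1 (0.22, interval -0.79 to 1.22) differed least.

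This comparison depended on the scaling and on single samples. With median centring 6 genes were higher and 2 lower and none passed, with quantile scaling 8 were higher and none passed, and with the scaling factor divided out 5 passed while the median of all genes moved to 0.46. That setting shifted the panel as a whole, so its 5 calls do not tell whether the 8 genes differ from the panel. The call of Osmr was lost without CT2A + RT-TMZ + Veh replicate 1 or 3 or any 1 of the 3 CT2A + RT-TMZ + Shef6 EV samples (adjusted p 0.0682 to 0.15), and Vim passed without CT2A + RT-TMZ + Veh replicate 2 (1.04) or 4 (1.58). S1pr3 also passed without CT2A + RT-TMZ + Veh replicate 2 (0.80, adjusted p = 0.0373). The low level of CT2A + RT-TMZ + Veh, given above, is one side of this difference: CT2A + RT-TMZ + Shef6 EV and RT-TMZ + Veh, which were not tested against each other, had means of 7.86 and 7.73 for Osmr and 10.67 and 10.69 for Vim. Endothelial markers moved with it: 6 of 7 rose, with summed levels of 3535 to 4347 counts in CT2A + RT-TMZ + Shef6 EV and 1823 to 2235 counts in CT2A + RT-TMZ + Veh. Sox9 rose by 0.70 ± 0.13 (adjusted p = 0.0282). Their part in the levels of Osmr and Vim was not tested. Of the other reactive astrocyte genes, 15 of 21 were higher and 2 rose, Fbln5 by 1.76 ± 0.35 (adjusted p = 0.0291) and Emp1 by 1.23 ± 0.26 (adjusted p = 0.0321).

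With UCI-191 EV in glioma-bearing mice, 5 genes were higher and 3 lower than in CT2A + RT-TMZ + Veh (3 and 5 with median centring, 4 and 4 with quantile normalization, 7 and 1 with the scaling factor divided out) and none of the 8 passed, where 1.45% of all 757 genes rose and 0% fell. Vim averaged 9.99 ± 0.16 in CT2A + RT-TMZ + UCI-191 EV and 9.34 ± 0.66 in CT2A + RT-TMZ + Veh (difference 0.65, 95% interval -0.12 to 1.43, adjusted p = 0.256). Osmr differed by 0.25 (interval -0.27 to 0.76), and Serpina3n by -0.97 (interval -2.23 to 0.30, adjusted p = 0.293), with a call at -1.41 without CT2A + RT-TMZ + Veh replicate 2. That sample was the only one of its group with Mef2c above 13, a level that all 3 UCI-191 EV samples exceeded. Without it, Mef2c and the groups coincide and cannot be told apart. Fbln5 rose by 1.57 ± 0.17 (adjusted p = 0.0137), the 1 of 21 other reactive astrocyte genes that did, and 4 of 7 endothelial markers rose. Endothelial markers had a summed level of 3435 to 3908 counts in CT2A + RT-TMZ + UCI-191 EV, inside the range of RT-TMZ + Veh. Vim in all 3 samples of CT2A + RT-TMZ + UCI-191 EV and Osmr in 1 of 3 lay within the range of Control + Veh. In its replicate 2, Vim (10.18) and Osmr (7.54) lay within the range of RT-TMZ + Veh, and Osmr in replicate 3 (6.80) lay below both ranges. The part of vessel content in these levels was not tested.

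Set directly against each other, CT2A + RT-TMZ + UCI-191 EV was below CT2A + RT-TMZ + Shef6 EV in all 8 genes and 1 of 8 fell, where 4.1% of all 757 genes rose and 2.51% fell. Vim averaged 9.99 ± 0.16 with UCI-191 EV and 10.67 ± 0.23 with Shef6 EV, a difference of -0.68 ± 0.13 SE (adjusted p = 0.0336). Osmr (-0.66, adjusted p = 0.0962), S1pr3 (-0.57, adjusted p = 0.126) and Serpina3n (-1.36, adjusted p = 0.0747) did not pass. Vim, Osmr, S1pr3 and Serpina3n did not overlap, where 120 of all 757 genes were higher and 141 lower without overlap. Under each of the 3 other scalings 7 of the 8 genes were lower and 1 higher. The call of Vim was lost without CT2A + RT-TMZ + UCI-191 EV replicate 1 or 2 or CT2A + RT-TMZ + Shef6 EV replicate 1 or 3 (adjusted p 0.0511 to 0.105). Serpina3n passed without CT2A + RT-TMZ + UCI-191 EV replicate 3 (-0.89, adjusted p = 0.0042), and Steap4 without CT2A + RT-TMZ + Shef6 EV replicate 1 (-1.20, adjusted p = 0.0351). All UCI-191 EV samples of this comparison and none of the Shef6 EV samples had Mef2c above 13, so that sample difference and the EV source cannot be told apart here.

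Whether an EV acted differently with and without a glioma was tested as the difference of its effects, each against the vehicle group of the same tumor status. For Shef6 EV all 8 differences were above 0 and 2 of 8 passed, where 4.89% of all 757 genes passed above 0 and 1.19% below it. The effect on Osmr was 0.91 with a glioma and -0.36 without, a difference of 1.27 ± 0.24 SE (95% interval 0.75 to 1.79, adjusted p = 0.0212). The effect on Vim was 1.33 with a glioma and -0.26 without, a difference of 1.59 ± 0.43 SE (interval 0.66 to 2.52, adjusted p = 0.0478). Lcn2 (1.62 ± 0.54 SE, adjusted p = 0.0720) and S1pr3 (0.69 ± 0.25 SE, adjusted p = 0.0995) did not pass. The median was 0.93 over the 8 genes and 0.17 over all genes, and with median centring 7 were above 0 and 1 below.

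Osmr lost this call without RT-TMZ + Shef6 EV replicate 1 or 2 or CT2A + RT-TMZ + Shef6 EV replicate 3 (adjusted p 0.0536 to 0.0676), and Vim without 10 of the 14 samples in turn (adjusted p 0.0542 to 0.131). The 4 that Vim's call survived were RT-TMZ + Veh replicate 1, RT-TMZ + Shef6 EV replicate 3 and CT2A + RT-TMZ + Veh replicates 2 and 4. Lcn2 passed without RT-TMZ + Veh replicate 1 (1.87, adjusted p = 0.0432) and S1pr3 without CT2A + RT-TMZ + Veh replicate 4 (0.79, adjusted p = 0.0433). Gbp2 (1.47, adjusted p = 0.0240) and Emp1 (1.67, adjusted p = 0.0425) were the 2 of 21 other reactive astrocyte genes that passed, and 5 of 7 endothelial and 3 of 6 astrocyte markers passed in the same direction, whose part in these differences was not tested. For UCI-191 EV, 4 differences were above 0 and 4 below (3 and 5 with median centring, 7 and 1 with the scaling factor divided out) and none of the 8 passed, where 1.59% of all 757 genes passed above 0 and 0.264% below it. The interval was -0.35 to 0.83 for Osmr and -0.36 to 1.45 for Vim.

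**Figure D4:**
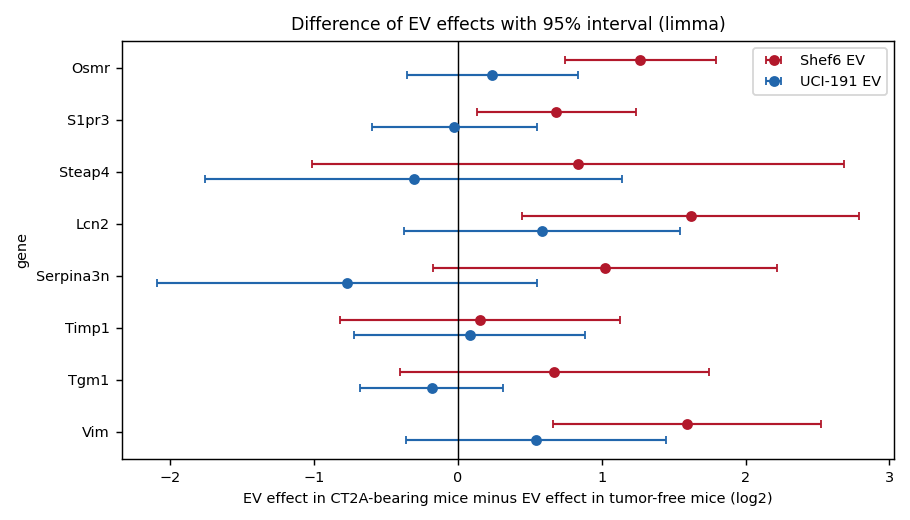
Effect of each EV in CT2A-bearing mice minus its effect in tumor-free mice for the 8 genes (horizontal axis, log2), Shef6 EV above UCI-191 EV for each gene, with 95% intervals from limma. The intervals for Shef6 EV lie above 0 for Osmr, S1pr3, Lcn2 and Vim, of which Osmr and Vim pass after adjustment, and all intervals for UCI-191 EV include 0.

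Each EV group was also set against the unirradiated Control + Veh, which all these comparisons share. CT2A + RT-TMZ + Shef6 EV was higher in all 8 genes and 6 of 8 rose, where 11.4% of all 757 genes rose and 6.61% fell. Steap4 rose by 1.83 (adjusted p = 0.0141), Lcn2 by 1.15 (adjusted p = 0.0309), S1pr3 by 0.89 (adjusted p = 0.00468), Serpina3n by 0.77 (adjusted p = 0.0227), Osmr by 0.68 (adjusted p = 0.0218) and Vim by 0.67 (adjusted p = 0.0114), and Timp1 was 0.79 higher without passing (adjusted p = 0.0581), except without CT2A + RT-TMZ + Shef6 EV replicate 3, at 1.08. S1pr3 and Vim kept their call without any 1 sample. Osmr lost it without Control + Veh replicate 1 or CT2A + RT-TMZ + Shef6 EV replicate 3, and Steap4 without CT2A + RT-TMZ + Shef6 EV replicate 2 (adjusted p = 0.0544). Serpina3n lost it without Control + Veh replicate 1 or 3 or any CT2A + RT-TMZ + Shef6 EV sample, and Lcn2 without Control + Veh replicate 1, 2 or 3 or CT2A + RT-TMZ + Shef6 EV replicate 1 or 3, with adjusted p-values of 0.0521 to 0.0853 for these 4 genes. CT2A + RT-TMZ + UCI-191 EV was higher in 6 genes and lower in 2 (7 and 1 with median centring, 5 and 3 with quantile normalization, 4 and 4 with the scaling factor divided out), and 2 of 8 rose, where 7.4% of all 757 genes rose and 5.68% fell. They were Steap4, by 1.14 (adjusted p = 0.00513), and Timp1, by 0.78 (adjusted p = 0.0133). All 3 samples of this EV group had Ttr at 11.87 to 14.05, against 6.72 to 10.27 in Control + Veh. All 3 also had Mef2c above 13, and all Control + Veh samples had it below 13. Ttr, Mef2c and the group therefore cannot be told apart here. With Ttr as a covariate Steap4 differed by 1.27 and Timp1 by 0.75, and with Mef2c by 0.52 and 0.38, and neither gene passed. The call of Timp1 was lost without CT2A + RT-TMZ + UCI-191 EV replicate 2 (adjusted p = 0.0573), and S1pr3 passed without CT2A + RT-TMZ + UCI-191 EV replicate 3, at 0.50.

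In tumor-free mice, RT-TMZ + UCI-191 EV was higher than Control + Veh in all 8 genes and 7 of 8 rose, where 15.7% of all 757 genes rose and 5.28% fell. Steap4 rose by 1.99 ± 0.14 SE (adjusted p = 0.000164), Timp1 by 1.09 (adjusted p = 0.00234), Vim by 0.80 (adjusted p = 0.00104), Lcn2 by 0.71 (adjusted p = 0.0415), S1pr3 by 0.66 (adjusted p = 0.00117), Tgm1 by 0.60 (adjusted p = 0.0114) and Osmr by 0.55 (adjusted p = 0.0347), and Serpina3n was 0.58 higher without passing (adjusted p = 0.0787), with calls without Control + Veh replicate 2 (0.72) and with the scaling factor divided out. All 3 samples of this group had Ttr between 14.25 and 14.85, against 6.72 to 10.27 in Control + Veh, so Ttr and the group cannot be told apart here, and with Ttr as a covariate none of the 8 passed. In that fit Steap4 (2.17), Timp1 (1.12), Lcn2 (0.86) and Tgm1 (0.68) differed by at least as much as without Ttr, S1pr3 (0.52) and Vim (0.49) by less, and Osmr (-0.0093) and Serpina3n (-0.46) changed sign. The calls of Steap4, Timp1, Vim and S1pr3 held without any 1 sample. Osmr lost its call without Control + Veh replicate 1 or any RT-TMZ + UCI-191 EV sample (adjusted p 0.0586 to 0.111). Lcn2 lost it without Control + Veh replicate 1, 2 or 3 or RT-TMZ + UCI-191 EV replicate 2 or 3 (adjusted p 0.0801 to 0.137), and Tgm1 without RT-TMZ + UCI-191 EV replicate 2 (adjusted p = 0.0546). RT-TMZ + Shef6 EV was higher than Control + Veh in all 8 genes, or in 7 with quantile scaling, and 2 of 8 rose, where 3.96% of all 757 genes rose and 1.45% fell. These were S1pr3, by 0.52 (adjusted p = 0.0209), and Timp1, by 1.03 (adjusted p = 0.0286), whose calls were lost without Control + Veh replicate 1 or 3 or RT-TMZ + Shef6 EV replicate 2 and, for Timp1, also without Control + Veh replicate 2 (adjusted p 0.0647 to 0.0870). Steap4 had the largest difference of the 8, 1.54 ± 0.37 SE, with no overlap (5.96 in RT-TMZ + Shef6 EV and 4.42 in Control + Veh), and did not pass (adjusted p = 0.0599). Vim was 0.43 higher, also with no overlap (adjusted p = 0.0848), where 80 of all 757 genes were higher and 61 lower without overlap. Both passed without RT-TMZ + Shef6 EV replicate 1 (Steap4 2.04, Vim 0.53), with median centring or with Mef2c as a covariate, and Steap4 also with the scaling factor divided out. That replicate had Ttr at 6.99, near the level of Control + Veh, against 14.13 and 14.79 in replicates 2 and 3. Without it, Ttr and the groups coincide and cannot be told apart. With all samples and Ttr as a covariate, none of the 8 passed.

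The 8 genes varied together across the 24 samples, as a description over samples that share the panel, the scaling and the treatment groups. Pearson's r was above 0 for all 28 pairs (0.10 to 0.86, median 0.51), beside a median of 0.04 over all pairs of named genes, and within groups it was -0.36 to 0.65 (median 0.21). Osmr and Vim were the closest pair, at 0.86 (0.62 within groups), and Steap4 and Tgm1 the least close, at 0.10 (-0.36 within groups). The genes most like Osmr were Emp1 (r = 0.88), Dab2 (0.87), an endocytic adaptor, and Pros1 (0.86), the anticoagulant protein S, and those most like Vim were Msn (0.93), the membrane linker moesin, Emp1 (0.92) and Axl (0.91), a receptor kinase. Steap4 was closest to Tnfrsf1a (0.91), Lamp2 (0.90) and Pla2g5 (0.90), and Serpina3n to Hdac1 (0.92), Cyp7b1 (0.91) and Amigo2 (0.90). The closest genes of Lcn2 were Fcgr2b (0.78), Lilrb4a (0.76) and Cd84 (0.75), those of S1pr3 Siglec1 (0.80), Lilrb4a (0.75) and C3ar1 (0.74), and those of Timp1 C3ar1 (0.85), Fcgr2b (0.79) and Ly9 (0.77). Within groups, r was 0.55, 0.62 and 0.29 for those of Lcn2 and 0.43, 0.27 and 0.40 for those of S1pr3. It was 0.66, 0.54 and 0.29 for those of Timp1, against 0.69 to 0.94 for those of Osmr, Vim, Steap4 and Serpina3n. Tgm1, near the assay's limit, was closest to Mmp12 (0.77), a macrophage metalloproteinase.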

How the data were processed

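Brain RNA of 24 mice in 7 groups was counted on the nCounter Mouse Neuroinflammation Panel. The authors deposited log2 values of counts that they had normalized to positive controls and then to housekeeping genes, for 757 probes, of which 703 carry a gene symbol in the annotation used here. No count files were used, so the scaling factor of each sample was recovered from the spacing of the low values (97.2 to 100% of them came out whole within 0.15), with implied totals of 861919 to 1478021 counts per sample. The number of mice and the counts of low genes limit the precision. The 8 genes and the gene lists were chosen with earlier results of these data known. Each comparison was fitted on its own groups with limma 3.58.1 in R 4.3.3 (lmFit, eBayes with trend), adjusted by the Benjamini-Hochberg method over all 757 probes, and called at an adjusted p under 0.05. Differences of EV effects were contrasts over 4 groups, and an F test used all 7. Genes called like a member were the 3 named genes with the highest Pearson's r over samples. The fit was tested on simulated data. Alternatives were median centring, quantile normalization, the scaling factor divided out, a pseudocount of 20, genes above 20 counts only, 1 fit of all 7 groups, the methods' t-test, no mean trend, the replicate number as a block, Ttr or Mef2c as a covariate and leaving out each sample. A fit of samples with Mef2c under 13 was added after seeing the data. Replicate numbers come from the sample titles and do not mark shared animals. Same-numbered samples of RT-TMZ + Shef6 EV and RT-TMZ + Veh deviated together in all 3 pairs (correlations 0.319 to 0.583 over genes) and were treated as paired in the blocked fit, which gave 0 of the 8 genes called, as without the block. This pairing was read from the same data and is not given by the labels. Replicate 1 had the lowest Ttr of both groups (6.67 in RT-TMZ + Veh and 6.99 in RT-TMZ + Shef6 EV), and the reason for the correlations was not tested. Python 3.11.15 (pandas 2.3.3, numpy 2.4.6, matplotlib 3.10.9) was used for sums, correlations and plots. Promoters and gene positions come from RefSeq on GRCm38.p6.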

Additional observations from a re-analysis of the deposited data

Results flagged for a closer look

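Serpina3n in RT-TMZ + Veh had 1 sample far from the others, replicate 2 at 9.33 with the next at 9.64, a gap of 0.861 of the range of the 4 samples. In CT2A + RT-TMZ + Veh replicate 2 was likewise low in Serpina3n, at 7.85 with the next at 9.43, a gap of 0.840 of the range. Of the groups of 4 mice tested, 8 genes in 3 groups, chance marks about 1 in 20 in this way. The effect of Shef6 EV differed between CT2A-bearing and tumor-free mice for Osmr, by 1.27 ± 0.24 SE (limma, adjusted p = 0.0212), with all 3 CT2A + RT-TMZ + Shef6 EV samples above all 4 CT2A + RT-TMZ + Veh samples and 2 of 3 RT-TMZ + Shef6 EV samples below all 4 RT-TMZ + Veh samples. It also differed for Vim, by 1.59 ± 0.43 SE (adjusted p = 0.0478), with all 3 CT2A + RT-TMZ + Shef6 EV samples above all 4 CT2A + RT-TMZ + Veh samples and the 3 RT-TMZ + Shef6 EV samples within the range of RT-TMZ + Veh.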

How the results depend on the processing

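With the replicate number as a block, the genes called of the 8 were 3 for RT-TMZ + Veh against Control + Veh (6 without it), 0 for CT2A + RT-TMZ + Veh against RT-TMZ + Veh (2), 0 for CT2A + RT-TMZ + Veh against Control + Veh (1), 2, Osmr and Vim, for CT2A + RT-TMZ + Shef6 EV against CT2A + RT-TMZ + Veh (1), 0 for RT-TMZ + Shef6 EV against Control + Veh (2) and 0 between the CT2A EV groups (1). In these comparisons the same numbers share no more than a number, and the block moved no other count by over 1.5 times. RT-TMZ + Veh against Control + Veh kept all 8 genes higher under every scaling, with 1 call by the methods' t-test and 2 with Ttr as a covariate. CT2A + RT-TMZ + Veh against RT-TMZ + Veh (2 calls) had 1 with median centring, 1 with quantile normalization, 7 with the scaling factor divided out, 0 with the t-test, with no mean trend or with Ttr, and 4 with Mef2c. Dividing out the factor also lowered the median of all genes there, as given below, so its 7 calls are not particular to the 8 genes. Against Control + Veh (1 call, Timp1) it had 2 with median centring (Steap4, Timp1), the scaling factor divided out (Osmr, Vim), all 7 groups in 1 fit or Mef2c (Timp1, Vim), 1 with Ttr that was Vim in place of Timp1, and 0 with genes above background, quantile normalization, the t-test or a pseudocount of 20. CT2A + RT-TMZ + Shef6 EV against CT2A + RT-TMZ + Veh (1 call) had 0 with median centring, quantile normalization, the t-test or Ttr, 5 with the scaling factor divided out, and 3 with all 7 groups in 1 fit, with Mef2c or among samples with Mef2c under 13, a setting chosen after seeing the data. CT2A + RT-TMZ + UCI-191 EV against CT2A + RT-TMZ + Veh (0 calls) had 1 with the scaling factor divided out or Mef2c, and the difference of UCI-191 EV effects (0) had 1 with Mef2c. The difference of Shef6 EV effects (2 calls) had 1 with median centring, quantile normalization, no mean trend, Ttr or Mef2c, 0 with Mef2c under 13, 4 with all 7 groups in 1 fit and 5 with the scaling factor divided out. RT-TMZ + Shef6 EV against Control + Veh (2 calls) had 4 with median centring, 1 with the scaling factor divided out, genes above background, all 7 groups or Mef2c under 13, and 0 with the t-test or Ttr. RT-TMZ + UCI-191 EV against Control + Veh (7 calls) had 4 with genes above background, all 7 groups or the t-test and 0 with Ttr, which coincides with the groups there. CT2A + RT-TMZ + Shef6 EV against Control + Veh (6 calls) had 0 with the t-test and 1 with Ttr or Mef2c. CT2A + RT-TMZ + UCI-191 EV against Control + Veh (2 calls) had 1 with the scaling factor divided out or genes above background. It had 0 with all 7 groups, Ttr or Mef2c, and both Ttr and Mef2c coincide with the groups there. Between the CT2A EV groups (1 call) there were 0 with quantile normalization, all 7 groups, the t-test, no mean trend or Mef2c. The cause of these changes was not tested. These counts, and those per left-out sample below, are of the 8 genes alone, without the calls over all genes beside them. They do not tell whether the 8 genes differ from the panel.

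Among differences past an unadjusted p of 0.05, directions turned for Osmr (-0.0093) and Serpina3n (-0.46) in RT-TMZ + UCI-191 EV against Control + Veh with Ttr, for Serpina3n (0.015) in RT-TMZ + Shef6 EV against RT-TMZ + Veh among samples with Mef2c under 13, and, in CT2A + RT-TMZ + UCI-191 EV against CT2A + RT-TMZ + Shef6 EV with Mef2c, for Osmr (1.15), S1pr3 (2.49), Lcn2 (0.43) and Serpina3n (6.47), where Mef2c and the groups coincide. Over all settings that kept the 8 genes, the number of them that were higher was 8 throughout for RT-TMZ + Veh, 2 to 6 for CT2A + RT-TMZ + Veh (6 as reported), 7 to 8 for Shef6 EV after RT-TMZ with or without CT2A (8), 6 to 8 for RT-TMZ + UCI-191 EV (8) and 4 to 7 for CT2A + RT-TMZ + UCI-191 EV (6), all against Control + Veh. Against RT-TMZ + Veh it was 0 to 1 for CT2A + RT-TMZ + Veh (0), 0 to 3 for RT-TMZ + Shef6 EV (2) and 2 to 6 for RT-TMZ + UCI-191 EV (5), and against CT2A + RT-TMZ + Veh 6 to 8 with Shef6 EV (8) and 1 to 7 with UCI-191 EV (5). For UCI-191 EV against Shef6 EV it was 6 to 8 without (8) and 0 to 6 with CT2A (0), and for the differences of effects 6 to 8 for Shef6 EV (8) and 3 to 7 for UCI-191 EV (4). With 1 sample left out at a time, the calls ranged from 4 to 7 for RT-TMZ + Veh against Control + Veh and for RT-TMZ + UCI-191 EV against it, 3 to 6 for CT2A + RT-TMZ + Shef6 EV, 1 to 3 for CT2A + RT-TMZ + UCI-191 EV, 0 to 4 for RT-TMZ + Shef6 EV and 0 to 1 for CT2A + RT-TMZ + Veh against Control + Veh. They ranged from 0 to 2 for CT2A + RT-TMZ + Veh against RT-TMZ + Veh and between the CT2A EV groups, 0 to 3 for CT2A + RT-TMZ + Shef6 EV against CT2A + RT-TMZ + Veh, for the difference of Shef6 EV effects and for RT-TMZ + UCI-191 EV against RT-TMZ + Shef6 EV, and 0 to 1 for RT-TMZ + Shef6 EV against RT-TMZ + Veh and CT2A + RT-TMZ + UCI-191 EV against CT2A + RT-TMZ + Veh. The F test gave 5 to 7. RT-TMZ + UCI-191 EV against RT-TMZ + Veh gave 0 throughout.

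The share of called genes that were higher moved with the scaling. It was 68.1% for RT-TMZ + Veh against Control + Veh (44.6% with quantile normalization), 17.5% for CT2A + RT-TMZ + Veh against RT-TMZ + Veh (50.9% with quantile normalization, 0% with the scaling factor divided out), 36.9% for CT2A + RT-TMZ + Veh against Control + Veh (72.8% with median centring, 54.1% with quantile normalization, 0.552% with the factor divided out) and 73.7% for CT2A + RT-TMZ + Shef6 EV against CT2A + RT-TMZ + Veh (53.8% with median centring, 99.7% with the factor divided out). It was 74.8% for RT-TMZ + UCI-191 EV (38.2% with median centring, 46.9% with quantile normalization), 73.2% for RT-TMZ + Shef6 EV (46.5% with quantile normalization, 44.2% with the factor divided out), 63.2% for CT2A + RT-TMZ + Shef6 EV (48.3% and 14.1%) and 56.6% for CT2A + RT-TMZ + UCI-191 EV (10.4% with the factor divided out), all against Control + Veh, 62% between the CT2A EV groups (75.3% with median centring) and 80.4% for the difference of Shef6 EV effects (63% with quantile normalization, 99.7% with the factor divided out). Dividing out the factor moved the median of all genes to -0.70 for CT2A + RT-TMZ + Veh against RT-TMZ + Veh, to 0.47 for CT2A + RT-TMZ + UCI-191 EV against CT2A + RT-TMZ + Veh, to 0.58 for the difference of Shef6 EV effects and to 0.41 for that of UCI-191 EV effects.

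Groups of 3 and 4 mice limit every comparison, and Tgm1 and Timp1 lay near the background of the assay. The methods' t-test was also read at the methods' threshold, a Benjamini-Hochberg false discovery rate of 0.5 and a difference of over 0.2 either way. For Shef6 EV against vehicle under CT2A, 5 of the 8 genes passed, beside 386 of all 757. For UCI-191 EV the numbers were 2 of the 8 and 360 of the 757. Without a tumor, each EV gave 0 of the 8 and 10 of the 757. These counts are therefore not particular to the 8 genes, of which 0 passed at an adjusted p under 0.05. The t-test was not run for the differences of effects or the F test. The Mef2c subset was not run where a group had no sample left.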
